A study of Mus musculus with 7 samples.

Results

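Acute-phase and secreted defense genes were examined in mouse mammary tumors as a set of 10 members among the 33710 genes counted. The members were Saa1, Saa2 and Saa3, Lcn2, Ltf and Cp, Slpi, Chil1 and Spp1, and Orm1, and they had been listed by symbol because their levels varied between tumors and rose together within PYMT-positive epithelial cells. Their levels, their variation and their joint detection are therefore given as a description, without a test. Reads were taken by Drop-seq, which captures the 3′ end of each mRNA from a single cell on a barcoded bead and counts each molecule once by its unique molecular identifier (UMI). Levels are UMIs per 1000000 UMIs of a cell class (CPM), and a molecule gives 1 UMI whatever its length. Levels of different genes are set side by side on that basis. Differences between genes in capture or in the assignment of reads were not tested.

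The 7 tumors were controls, 1 from each of 7 MMTV-PyMT; HK2 f/f mice on a C57BL/6 background, labelled wild type, so every mouse carried the polyoma middle T oncogene and 2 floxed but intact alleles of the hexokinase gene HK2. The MMTV promoter drives the oncogene (PYMT in the counts) in mammary epithelium. The mice carried no Cre, received tamoxifen all the same, and were labelled as sampled 3 months after the tumor became palpable. Replicates 1 to 4 are titled CB and replicates 5, 7 and 8 are titled WT, letters that the labels do not explain, and tumors with HK2 deletion were not analysed here. Barcodes with 200 to 6000 genes counted as cells, 15047 in all, with 1133 to 4780 cells and 962677 to 4471473 UMIs per tumor and a median of 527 to 694 UMIs per cell. Only 5 barcode sequences occurred in more than 1 library, in 10 cells.

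Acute-phase proteins are blood proteins whose synthesis changes during inflammation, classically in liver under the cytokines IL-6 and IL-1 acting through STAT3, C/EBP and NF-κB factors. Epithelia that face the outside, the mammary gland among them, make some of the same proteins locally and secrete them with iron-binding and antiprotease proteins into milk or mucus. Several of them are also known as products of macrophages, neutrophils or fibroblasts, so the cell that makes them has to be resolved before a tumor level can be read.

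Saa1, Saa2 and Saa3 lie close together on chromosome 7 and encode serum amyloid A proteins, small apolipoproteins of the acute phase. In GRCm38 (GENCODE), Saa3 spans chr7:46711998-46715700 and Saa1 chr7:46740497-46742980, both on the minus strand, and Saa2 spans chr7:46751790-46754313 on the plus strand. Saa1 and Saa2 are near copies: the last 300 bases of their transcripts, from which 3′ reads come, were identical at 93.3% of positions, against 57.3% for Saa1 and Saa3. How the counting split reads between Saa1 and Saa2 is not given in the sources used here, so separate values of Saa1 and Saa2 are uncertain throughout, and their summed level is given beside them. The same holds for Orm1, identical to Orm2 at 97.7% and to Orm3 at 91% of these bases. Of the other members, Slpi shares exon sequence with Mir7678 and Spp1 with Gm42793 on the same strand, and Cp overlaps an exon of Hps3 on the opposite strand.

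The 250 bases before the start of Saa1, Saa2, Saa3 and Lcn2 (RefSeq, GRCm38.p6) are printed. The 3 Saa genes are of the same family and lie close together, their levels are compared here, and Lcn2 is the most abundant member. Capitals mark a match to TTGCNNAA, a C/EBP-type motif, on either strand.
Saa1, chr7:46742981-46743230, minus strand: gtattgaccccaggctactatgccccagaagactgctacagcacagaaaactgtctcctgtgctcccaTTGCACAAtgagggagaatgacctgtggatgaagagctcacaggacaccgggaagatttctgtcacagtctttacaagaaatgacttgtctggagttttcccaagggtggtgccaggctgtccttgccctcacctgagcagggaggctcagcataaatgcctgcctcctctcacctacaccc
Saa2, chr7:46751583-46751832, plus strand: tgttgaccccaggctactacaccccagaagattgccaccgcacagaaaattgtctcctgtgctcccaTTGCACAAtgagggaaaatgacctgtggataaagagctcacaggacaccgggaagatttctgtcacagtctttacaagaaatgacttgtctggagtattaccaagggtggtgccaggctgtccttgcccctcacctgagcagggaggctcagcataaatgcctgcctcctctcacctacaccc
Saa3, chr7:46715677-46715926, minus strand: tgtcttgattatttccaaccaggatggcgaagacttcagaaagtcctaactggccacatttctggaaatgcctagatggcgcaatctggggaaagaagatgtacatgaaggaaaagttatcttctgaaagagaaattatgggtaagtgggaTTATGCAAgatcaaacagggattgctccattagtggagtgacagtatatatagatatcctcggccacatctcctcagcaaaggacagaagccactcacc
Lcn2, chr2:32387740-32387989, minus strand: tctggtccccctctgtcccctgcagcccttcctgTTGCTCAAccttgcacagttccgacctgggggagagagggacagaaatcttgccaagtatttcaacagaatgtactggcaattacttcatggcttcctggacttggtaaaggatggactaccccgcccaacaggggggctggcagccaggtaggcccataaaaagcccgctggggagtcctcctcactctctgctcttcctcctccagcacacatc
The Saa1 and Saa2 windows of 300 bases (250 before to 50 after the start) were identical at 95.67% of positions and carried the same match TTGCACAA, 182 and 183 bases before the start. Saa3 was 64% identical to Saa1 over that window and carried TTATGCAA, a match on the other strand, 99 bases before the start. In Lcn2 the match was TTGCTCAA, 216 bases before the start. TTGCNNAA was present in 3547 of 32851 promoters (10.8%) and in at least 1 promoter of 8 of the 9 members with an entry, all but Chil1, and Orm1 had no entry. A STAT-type motif, TTCNNNGAA, was found in 8.3% of promoters and in those of 0 of the 9 members, and the κB consensus in 4.51%, including that of Chil1. The motifs were picked with the sequences in view, and a match in letters is not a binding site.

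Cells were sorted by marker genes into classes named after the list they resembled. The tumor-like class, defined by PYMT, luminal keratins, Csn3 and other alveolar-type genes, held 5869 cells (217 to 1492 per tumor). Any 3 of the 14 tumor markers could place a cell there, so PYMT was not required. A PYMT UMI was present in 46.7% to 57.4% of these cells in CB tumors and 67.3% to 79.1% in WT tumors. Levels in the class are therefore not those of PYMT-positive cells alone. A hormone-sensing-like class held 1197 cells (20 to 751 per tumor). Prlr, Esr1 and the fibrinogen genes Fga, Fgb and Fgg were among its markers. The class expressed its own markers at 9389 to 15882 CPM in sum, against 284 to 471 CPM in tumor-like cells. It also carried the tumor list, which holds keratins and other genes of luminal epithelium in general, at 25997 to 28885 CPM, against 35724 to 53386 CPM in tumor-like cells, and its cells were set apart by the hormone-sensing markers alone. PYMT was at 2279 ± 1444 CPM (SD, n = 7) in tumor-like and 426 ± 363 CPM in hormone-sensing-like cells. Levels were taken from tumors with at least 10 cells of a class, which left 927 fibroblast-like and 2040 macrophage-like cells in 7 tumors, 1393 T/NK-like cells in 6, and 68 myoepithelial-like and 68 endothelial-like cells in 3 tumors each. No cell met the hepatocyte list, whose summed markers were at 0 to 6.8 CPM in tumor-like cells. Neutrophil markers summed to 148 to 645 CPM there, and 17 cells met the neutrophil list.

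Pooled over the 7 tumors, tumor-like cells, 39.0% of all cells, held most of the UMIs of every member but Saa3. Their share ran from 76.3% for Spp1 to 93.3% for Saa2 of all UMIs in cells. The share of cells is not the measure for these values, since tumor-like cells held a larger part of all UMIs than of cells. They had 1764264 of 2319456 UMIs in replicate 1, with 63.8% of its cells, and 228223 of 962677 in replicate 8, with 19.2%. Replicate 7 supplied 26516 of the 36011 Spp1 UMIs of tumor-like cells. Tumor-like and macrophage-like cells held 2878 and 80, 1491 and 596, 875 and 847, and 3124 and 2752 Spp1 UMIs in replicates 1 to 4. The counts were 724 and 516, 26516 and 590, and 403 and 132 in replicates 5, 7 and 8. Together the 10 members made up 1.22% to 4.26% of the UMIs of tumor-like cells. Replicate 3 was lowest in this sum, at 12225 CPM, replicate 7 was highest, at 42558 CPM, and the remaining 5 lay between 16582 and 24355 CPM. Lcn2 alone supplied 38.5% to 61.3% of the sum.

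**Figure D1:**
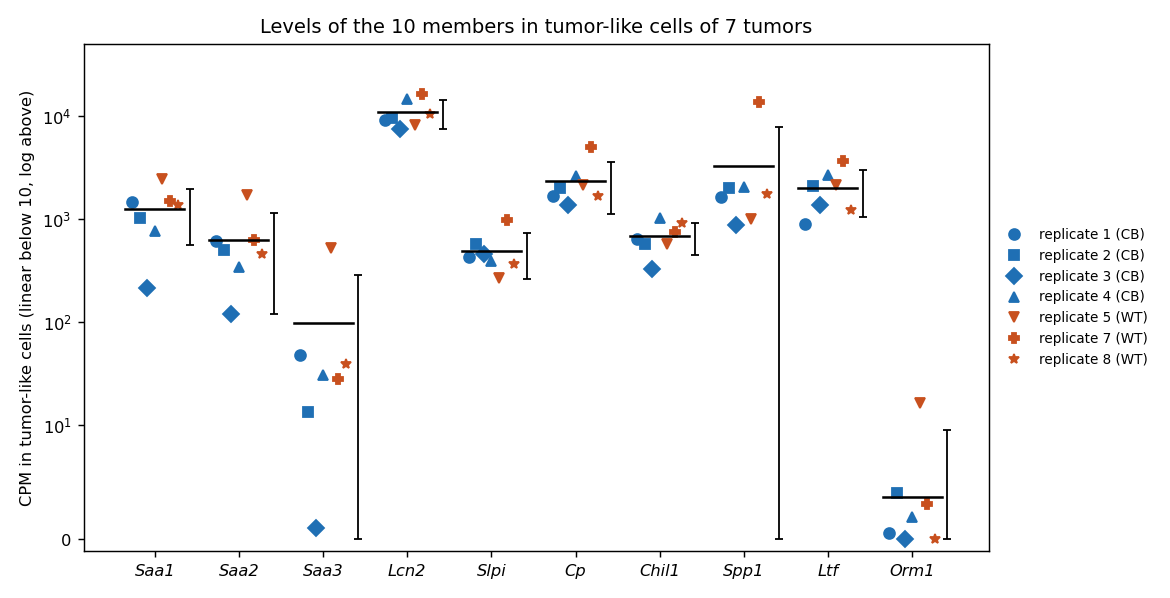
Level of each member in tumor-like cells, in CPM on an axis that is linear below 10 and logarithmic above, 1 symbol per tumor (blue CB, orange WT), with the mean as a line and mean ± SD as the bar beside it (n = 7, cut at 0 where the SD exceeds the mean). Lcn2 lies within 7496 and 16379 CPM, whereas Saa3 runs from 1.01 to 527 CPM and the Spp1 level of replicate 7 stands alone at 13617 CPM.

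Among the metal-binding proteins, Lcn2 encodes lipocalin 2, which captures the siderophores that bacteria use to take up iron. Its level in tumor-like cells was lowest in replicate 3 (7496 CPM), had a median of 9636 CPM and was highest in replicate 7 (16379 CPM), with a mean of 10829 ± 3323 CPM. Only 2 genes had a higher mean level in these cells, and all 7 tumors were within 2.18-fold of each other. Its SD on the log2 scale, 0.42, compares with a median of 0.35 over the 3288 genes with a mean of at least 50 CPM. Ltf, which encodes the iron-binding milk protein lactoferrin, ranged from 893 CPM in replicate 1 through a median of 2111 CPM to 3678 CPM in replicate 7 (mean 2015 ± 962 CPM). Cp, the copper-carrying ferroxidase ceruloplasmin, was at 1368 CPM in replicate 3, at a median of 2019.7 CPM and at 5016 CPM in replicate 7 (mean 2352 ± 1240.5 CPM). Replicate 7 was thus the highest for all 3 genes, and for Cp it lay far from the next tumor, replicate 4 at 2600.3 CPM.

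The Saa genes varied more than the metal-binding genes. Saa1 was lowest in replicate 3 (215 CPM), had a median of 1354 CPM and was highest in replicate 5 (2436 CPM), and its log2 SD of 1.12 exceeded that of 97.2% of the genes compared. Saa2 followed the same ends, with 121 CPM in replicate 3, a median of 505 CPM and 1703 CPM in replicate 5. Saa3, the member of the family known for expression outside liver, was at 1.01 CPM in replicate 3 on a single UMI (95% Poisson interval 0.0255 to 5.61 CPM), at a median of 30.4 CPM and at 527 CPM in replicate 5. Summed, Saa1 and Saa2 were at 336 CPM in replicate 3, at a median of 1814 CPM and at 4139 CPM in replicate 5 (mean 1876 ± 1176 CPM). Saa1 and Saa2 shared their highest, lowest and second highest tumor (replicate 7). The 4 CB tumors ranged from 215 to 1474 CPM for Saa1 and the 3 WT tumors from 1354 to 2436 CPM, so the title series overlapped. Poisson intervals cover counting error only.

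In replicate 5 a single cell held most of the Saa3 UMIs and a smaller part of the Saa1 and Saa2 UMIs. This tumor-like cell with 11228 UMIs and 3141 genes held 684 of the 1779 Saa1, 483 of the 1244 Saa2 and 354 of the 385 Saa3 UMIs of its class in that tumor, together with 303 Lcn2, 249 Ltf and 9 Orm1 UMIs, 35 UMIs of PYMT, 12 of the 14 tumor markers and 1 macrophage marker. It supplied 59.9% of all Saa3 UMIs of tumor-like cells in the 7 tumors. Without it replicate 5 was at 1523 CPM for Saa1, 1058 CPM for Saa2 and 43.1 CPM for Saa3. Replicate 5 then still had the highest Saa1 and Saa2 levels, and leaving out the highest cell of each tumor lowered the mean over tumors to 985 ± 461, 470.2 ± 304 and 19.7 ± 13.6 CPM, from 1250.3 ± 692, 626 ± 506 and 98.2 ± 190 CPM. Whether that barcode held 1 cell or more was not tested.

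**Figure D2:**
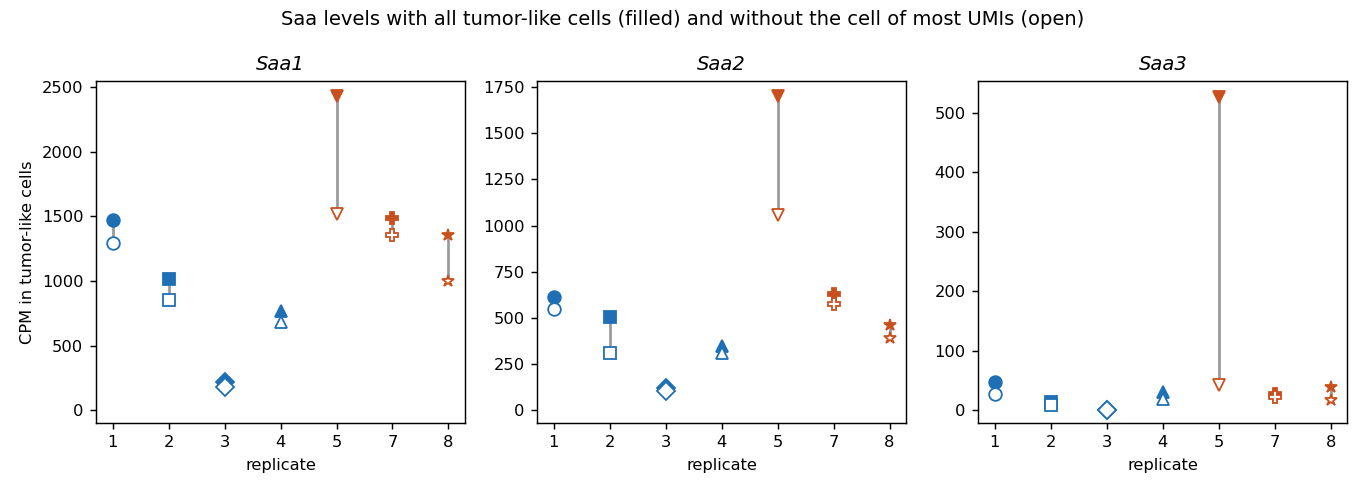
Saa1, Saa2 and Saa3 levels (CPM) in tumor-like cells of each tumor, with all cells as filled symbols and without the cell holding most UMIs of the gene as open symbols, blue for CB and orange for WT tumors. In replicate 5 Saa3 drops from 527 to 43.1 CPM, while replicate 3 stays lowest for all 3 genes.

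Slpi, Chil1 and Spp1 encode a secreted inhibitor of neutrophil elastase, a chitinase-like protein that binds chitin without cutting it, and osteopontin, a secreted phosphoprotein that binds integrins and CD44. Slpi ranged from 267 CPM in replicate 5 through a median of 430.2 CPM to 976 CPM in replicate 7 against 571 CPM in the next tumor, replicate 2. Chil1 ranged less than Spp1, with 325 CPM in replicate 3, a median of 645 CPM and 1021 CPM in replicate 4. Spp1 was at 881 CPM in replicate 3, at a median of 1766 CPM and at 13617 CPM in replicate 7, where no single cell decided the value (13344 CPM without its highest cell). The other 6 tumors had 881 to 2024 CPM of Spp1, and without replicate 7 the mean fell from 3273 ± 4584 to 1549 CPM.

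Orm1, which encodes the plasma glycoprotein orosomucoid, was close to absent. It had 25 UMIs in tumor-like cells, 12 of them in replicate 5, and none in replicates 3 and 8, where a floor of 3 UMIs corresponds to 3.02 and 13.1 CPM. Of the 10 members, 9 had UMIs in tumor-like cells of all 7 tumors, and Orm1 had them in 5.

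The order of the tumors was not the same for every gene. Replicate 3 was the lowest tumor for Saa1, Saa2, Saa3, Lcn2, Cp, Chil1 and Spp1, but ranked 3 of 7 for Slpi. Replicate 7 was highest for Lcn2, Ltf, Cp, Slpi and Spp1 and ranked 3 of 7 for Chil1. Replicate 5, highest for the Saa genes and Orm1, was lowest for Slpi and next to lowest for Lcn2, Chil1 and Spp1.

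How the UMIs were spread over cells set the members apart from each other. Lcn2 was detected in 92.6% of tumor-like cells and Cp in 62.2%, and the 59 cells with most UMIs of the gene (1% of the class) held 13.4% of Lcn2 and 19.3% of Cp UMIs, near the 12.8% for Krt8, 13.1% for Csn3 and 18.5% for PYMT. The same share was 30.2% for Chil1, 31.2% for Slpi, 34.8% for Ltf and 37.3% for Spp1, each of which was detected in 20.3% to 31.0% of cells. These shares pool the cells of 7 tumors, so differences between tumors enter them. In replicate 7 alone Spp1 was detected in 67.3% of cells, and 1% of cells held 16.8% of its UMIs. In the other tumors it was detected in 10.2% to 25.7% of cells, with 27.2% to 57.6% of UMIs in 1% of cells. Saa1 was detected in 17.8% and Saa2 in 10.7% of cells, and 50.1% and 58.4% of their UMIs were in 1% of cells. Saa3 was found in 64 cells (1.09%). Because a tumor-like cell had a median of 731 UMIs, a cell without a UMI of a gene may still express it. Both measures also depend on how many UMIs a gene has, and the part of this was not tested. Krt8, PYMT and Csn3 had 14889, 15496 and 209833 UMIs in the class. Slpi, Saa2, Chil1 and Saa1 had 4414, 4689, 5539 and 9742, while Ltf and Spp1 had 17665 and 36011.

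Detection was compared with T/NK-like cells, which were the largest class outside epithelium and macrophages, after each cell was thinned to 300 UMIs (515 of 5869 tumor-like and 186 of 1401 T/NK-like cells had fewer and were left out, and the class medians before thinning were 731 and 472 UMIs). A Lcn2 UMI was present in 85.3% of tumor-like and 9.38% of T/NK-like cells. Cp was present in 42.5% against 2.47%, Spp1, which activated T and NK cells are known to make, in 22.0% against 4.20%, Ltf in 20.9% against 2.63% and Chil1 in 14.3% against 0.658%. Saa1 was present in 11.8% against 0.988%, Slpi in 10.2% against 0.576% and Saa2 in 6.11% against 0.329%. Saa3, at 0.392% against 0 of 1215 cells, and Orm1, at 0.056% against 0, were too rare to be separated well at this depth.

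Barcodes with under 200 genes, which may hold free RNA or small or damaged cells, were summed as a further background. There Lcn2 was at 999 to 5763 CPM, Spp1 at 452 to 4711 CPM and Saa1 at 129 to 992 CPM. Tumor-like cells exceeded these barcodes of their own library in 7 of 7 tumors for Saa1, Saa2, Lcn2, Slpi, Cp, Chil1 and Ltf, in 6 of 7 for Spp1, in 3 of 7 for Orm1 and in 2 of 7 for Saa3. Lcn2 was below the low barcodes in 7 of 7 tumors in hormone-sensing-like, fibroblast-like and macrophage-like cells. Spp1 in T/NK-like cells exceeded the low barcodes in 0 of 6 tumors. Before thinning, 64 of the 108 T/NK-like cells with a Spp1 UMI in these 6 tumors were in replicate 7. The part that RNA of such barcodes has in the levels of all these classes was not tested.

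**Figure D3:**
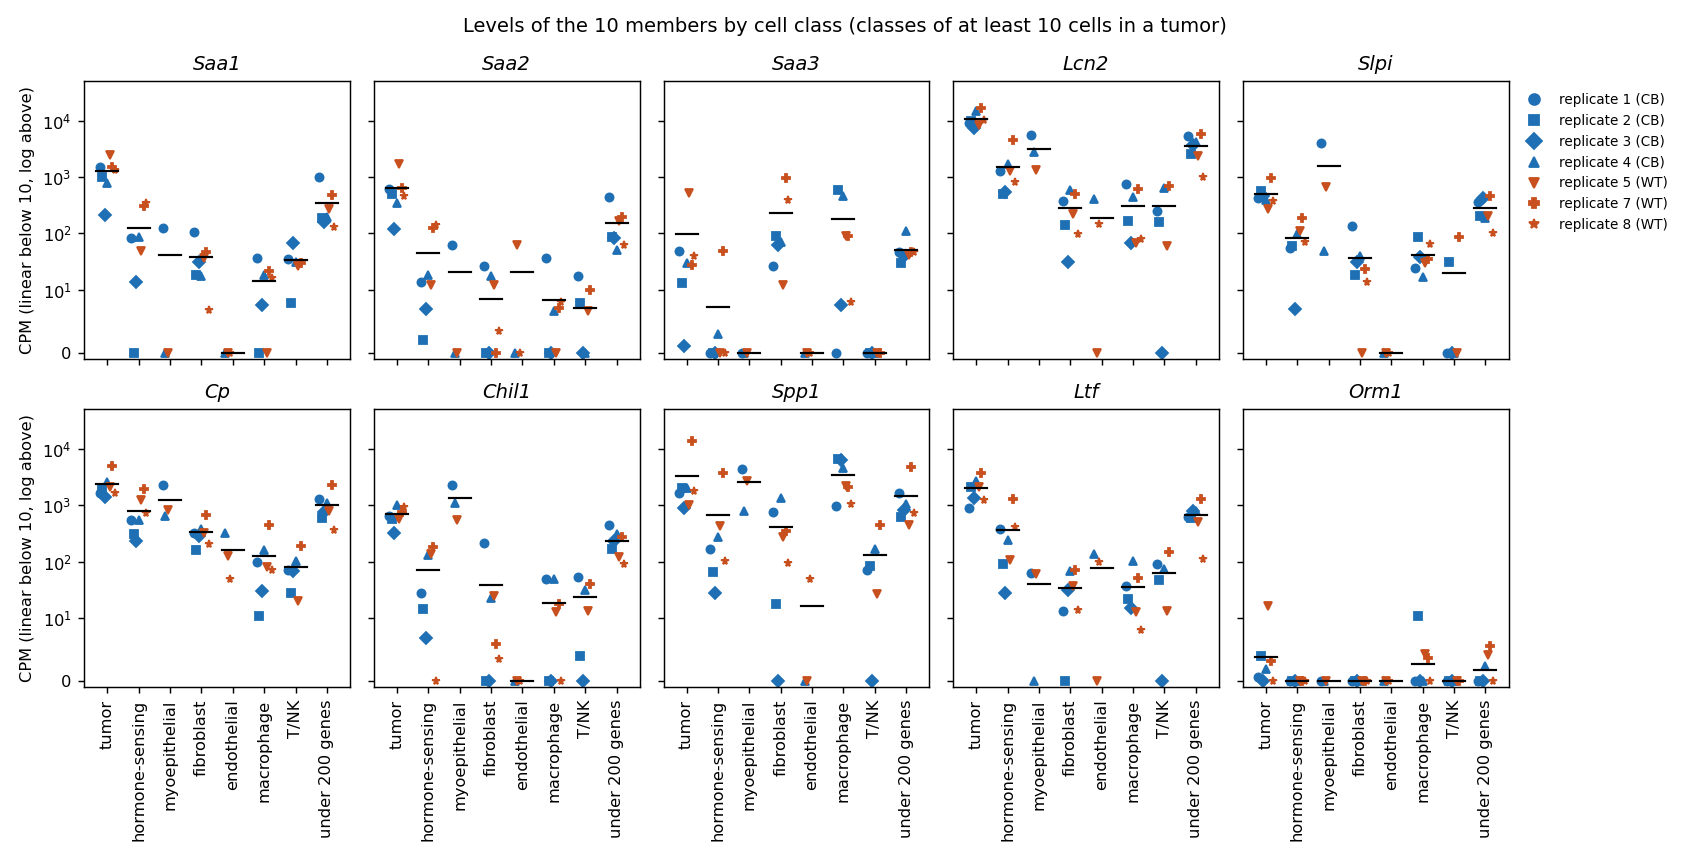
Level of each member (CPM, linear below 10 and logarithmic above) by cell class and in barcodes with under 200 genes, 1 symbol per tumor with at least 10 cells of the class (blue CB, orange WT), with the mean as a line. Tumor-like cells are the highest of the named classes in all 7 tumors for Saa1, Saa2, Lcn2 and Ltf, whereas Saa3 and Spp1 reach high levels in fibroblast-like or macrophage-like cells.

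Hormone-sensing-like cells had lower levels than tumor-like cells in 7 of 7 tumors for all members with UMIs in both but Saa3. Lcn2 was at 508, 1271 and 4472 CPM (lowest, median and highest tumor), 3.66-fold to 19.0-fold below the tumor-like level of the same mouse. For Cp the gap was 1.69-fold to 6.46-fold, with 228 to 1940.5 CPM in hormone-sensing-like cells. Spp1 was at 27.6 to 421 CPM in 6 tumors and at 3646 CPM in replicate 7, the same tumor in which tumor-like cells were highest. Saa1 and Saa2 summed to 2.03 to 486 CPM in this class, with 1 UMI behind the lowest value. The sum was a median of 16.2-fold and in the closest tumor 3.73-fold below tumor-like cells. That closest tumor, replicate 8, also had the highest sum, on 14 UMIs, and its 10 Saa1 UMIs all lay in 1 cell. Saa3 had 12 UMIs in this class, 8 of them in 1 cell of replicate 7.

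Myoepithelial-like cells of replicates 1, 4 and 5 (18 to 25 cells each) carried some members and not others. Slpi was at 4075, 49.4 and 658 CPM in these tumors, Chil1 at 2319.8, 1087 and 538 CPM, and Spp1 at 4326, 791 and 2631 CPM, each above the tumor-like level in 2 of 3 tumors. Lcn2 was at 5455, 2767 and 1315 CPM, below the tumor-like level in 3 of 3. Single cells weighed heavily here: without the highest cell, Slpi of replicate 1 was at 2105 CPM, Spp1 of replicate 5 at 407 CPM, Chil1 of replicate 4 at 556 CPM and Lcn2 of replicate 1 at 1987 CPM. Without the highest cell of each tumor's class, Spp1 and Chil1 were each above the tumor-like level in 1 of 3 tumors. Ltf, with 2 UMIs, and the Saa genes, with 3 in all, were nearly absent from these 3 sums. With so few cells these levels are imprecise.

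Spp1 and Saa3 were also found outside the epithelium, in some tumors more than in others. Spp1, known as a product of tumor macrophages, was at 978, 2204 and 6490 CPM in macrophage-like cells (lowest, median and highest tumor), above tumor-like cells of the same mouse in 4 of 7 tumors, and after thinning 13.4% of macrophage-like cells had a Spp1 UMI. A single cell held 43 of the 80 UMIs of replicate 1 (471 CPM without it) and 257 of the 516 of replicate 5 (1137 CPM without it), the lowest and the median tumor. The macrophage-like level exceeded that of barcodes with under 200 genes in 5 of 7 tumors for Spp1 and in 4 of 7 for Saa3, as did the fibroblast-like Saa3 level in 4 of 7. Of all 1382 Saa3 UMIs in cells, 42.8% were in tumor-like, 27.5% in macrophage-like and 21.6% in fibroblast-like cells, and T/NK-like and endothelial-like cells had none. Saa3 in fibroblast-like cells was at 12.4 CPM in replicate 5, at a median of 69.4 CPM and at 963 CPM in replicate 7, where 162 UMIs lay in 13 of 155 cells. In macrophage-like cells it was 0 in replicate 1, 89.7 CPM at the median and 588 CPM in replicate 2, the last on 54 UMIs in 2 cells, while replicate 4 had 278 UMIs in 21 of 903 cells (465 CPM). Saa3 was therefore concentrated in few cells in these 3 classes, and which of them was highest changed from tumor to tumor. Saa1 and Saa2 did not share this pattern, with at most 106 CPM in fibroblast-like and 36.7 CPM in macrophage-like cells.

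Joint detection was described within PYMT-positive tumor-like cells, each thinned to 300 UMIs, 398 of which had a Saa1 UMI and 2888 had none, the latter including cells with Saa2 alone. Saa2 was found in 30.0% to 63.3% of cells with Saa1 and in 1.62% to 5.08% of cells without, a ratio of 17.9 ± 10.1 (SD, n = 7). Part of this ratio can come from reads split between the near copies, a share that was not tested. Spp1 was found in a median of 37.1% of cells with Saa1 against 11.9% without, a ratio of 2.81 ± 0.71. Spp1 was the more frequent in Saa1-positive cells of 7 of 7 tumors, as were Chil1 (ratio 2.14 ± 0.53), Cp (1.48 ± 0.34) and Lcn2 (1.14 ± 0.096, with little room to rise above a median of 85.7% in cells without Saa1).

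Ltf and Slpi did not follow Saa1 in every tumor. Slpi was found in a median of 12.9% of cells with and 7.06% without Saa1, with ratios from 0.725 in replicate 3 to 3.43 in replicate 5 and above 1 in 4 of 7 tumors. Ltf was more frequent with Saa1 in 5 of 7 tumors, with ratios from 0.93 to 4.24. It was found in 46.7% against 11% of cells in replicate 5 and in 22.9% against 24% in replicate 4. Ltf was instead more frequent in cells with Cp than without in 7 of 7 tumors (ratio 1.97 ± 0.66), and Slpi likewise (2.52 ± 1.25). Chil1 with Slpi gave a ratio of 1.01 ± 0.80, above 1 in 3 of 7 tumors. Spp1 (3.26 ± 2.06) was more frequent in cells with Cp in 6 of 7 tumors and Chil1 (1.45 ± 0.69) in 5 of 7.

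**Figure D4:**
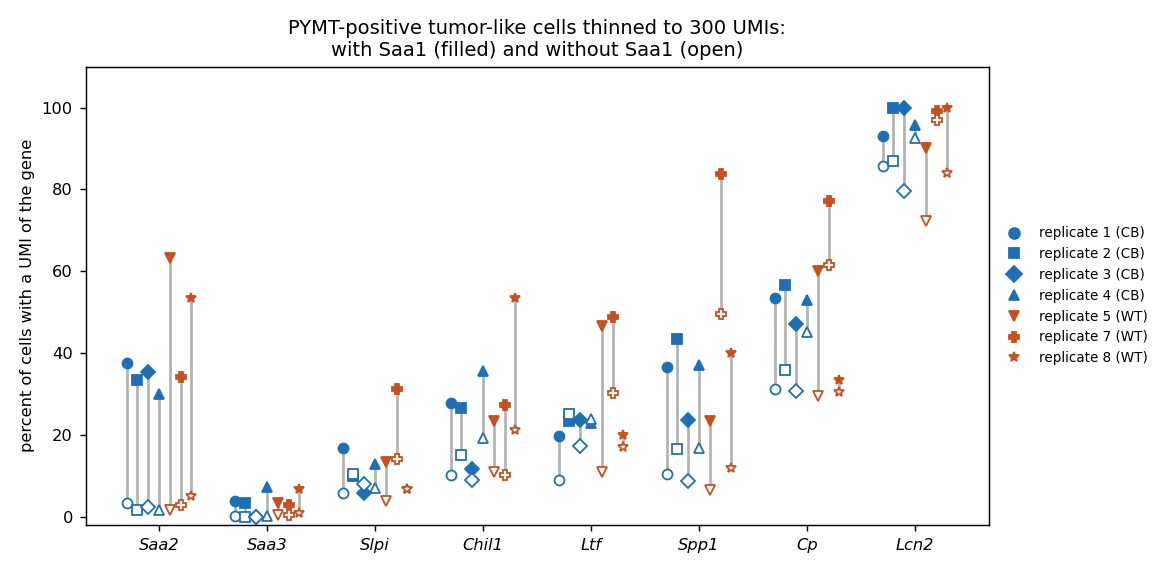
Percent of PYMT-positive tumor-like cells, thinned to 300 UMIs, with a UMI of each gene, in cells with Saa1 (filled) and without Saa1 (open), joined for each tumor. Saa2 and Spp1 are higher in Saa1-positive cells of all 7 tumors, whereas Ltf is lower in replicates 2 and 4.

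Other genes were tested between Saa-positive cells (at least 1 UMI of Saa1, Saa2 or Saa3 after thinning, 7.38% to 20.9% of PYMT-positive tumor-like cells, 22 to 155 per tumor) and Saa-negative cells of the same tumor. Of 630 genes that passed the filter on low counts, 10 were higher in Saa-positive cells (1.59%) by edgeR's quasi-likelihood test with Benjamini-Hochberg adjustment. Members made up 7 of these, a count that the choice of members fixed. With 36300 or fewer Saa-positive UMIs in 6 of 7 tumors, genes of low level could not be tested. Lower in Saa-positive cells were 0 genes (0%) by edgeR, with 11 at an unadjusted p under 0.05, and 0 by DESeq2, with 4 at an unadjusted p under 0.05.

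The other 3 genes were Trf, Lrg1 and Fth1. Trf, which encodes the iron carrier transferrin and is also one of the tumor-class markers, was at 4323 ± 1605 CPM in Saa-positive and 2936 ± 879 CPM in Saa-negative cells, with a log2 fold change of 0.52 ± 0.13 (SE), higher in 7 of 7 tumors (edgeR adjusted p = 0.0242). Lrg1, a secreted leucine-rich glycoprotein of the acute phase, was at 1483 ± 757 against 669 ± 237 CPM (log2 1.01 ± 0.20, 6 of 7 tumors, edgeR adjusted p = 0.00371). Fth1, the heavy chain of the iron store ferritin, was at 4788 ± 1429 against 2948 ± 378 CPM (log2 0.73 ± 0.16, 6 of 7 tumors, edgeR adjusted p = 0.00658). Trf alone had the same sign in all tumors and so met the rule for genes to be named, and Lrg1 and Fth1 were named after their values had been seen. None of the 3 passed without the mouse as a block (edgeR adjusted p = 0.998 for Trf and 0.276 for both others) or within either title series alone. The Trf call was also lost without replicate 2, 4, 5 or 8 and the Fth1 call without replicate 7. Without the filter on low counts the signs of Trf and Fth1 turned, and without thinning both calls were lost. Over all alternatives, 39 recomputed values of the 3 genes kept direction and side of the threshold, 19 lost the call and 2 reversed. Not every lost call is named here.

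Of 19 regulators of acute-phase genes 4 had enough counts to be tested, and the 4 did not pass by edgeR, with 0 at an unadjusted p under 0.05. Cebpb and Cebpd, the C/EBP factors, had log2 fold changes of 0.16 ± 0.23 and 0.21 ± 0.18 between Saa-positive and Saa-negative cells, Stat3 0.27 ± 0.25 and the NF-κB inhibitor Nfkbia -0.08 ± 0.18. Among other secreted products, Cxcl1 (0.22 ± 0.28), Cxcl2 (-0.22 ± 0.30), Wfdc18 (-0.13 ± 0.18) and Muc15 (-0.26 ± 0.26) did not pass either. With these errors small differences could not be seen, and the genes are not shown to be equal. Of the other acute-phase genes Lrg1 was the only 1 of 24 with counts high enough to be tested.

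The surroundings of the members in the epithelium were then compared between tumor-like and hormone-sensing-like cells of the same mouse, with lists of related genes, markers of both classes being left out of the lists. Of 7034 genes tested, 1113 were higher (15.8%) and 1014 lower (14.4%) in tumor-like cells. The hormone-sensing-like sums were small in some mice, 28798 UMIs in replicate 8, and the class carried fibroblast markers at 585 to 2049 CPM in sum beside the tumor list at 25997 to 28885 CPM, and the part of either in these results was not tested. The median log2 fold change over all genes was 0.02. Like the members, the lists were chosen with earlier results of these data known, so counts of calls within a list are a description. The tumor-like class was itself picked with Csn3 and other alveolar-type genes, and the part of that choice in these results was not tested.

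Of 9 secreted defense genes tested, 7 were higher in tumor-like cells, 1 was lower and 1, the lysozyme gene Lyz2, did not pass, with a median log2 fold change of 2.13. Wfdc18, a whey acidic protein-type secreted protein, was at 18186 ± 3512 CPM against 2471 ± 2114 CPM (log2 3.35 ± 0.26, edgeR adjusted p = 3.5e-11, higher in 7 of 7 tumors). Pigr, the receptor that carries IgA across epithelium (log2 2.73), and the mucins Muc15 (2.56) and Muc1 (2.13) were also higher in 7 of 7 tumors, as was Wfdc17 (1.95). S100a8, a calcium-binding protein best known from neutrophils and part of the neutrophil list here, was at 274 ± 170 against 18.9 ± 23.3 CPM (log2 2.95), while its partner S100a9 was at 3.72 ± 3.64 CPM in tumor-like cells. The S100a8 value was 5.03 without replicate 4. Wfdc12 was higher in 6 of 7 tumors (log2 1.74, and 2.64 without replicate 5). Wfdc2 was the exception, at 209 ± 104 against 2848 ± 927 CPM (log2 -3.82 ± 0.22, edgeR adjusted p = 5.6e-14), lower in 7 of 7 tumors.

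Of the other acute-phase genes 4 could be tested, of 21 in the list. The fibrinogen genes Fga, Fgb and Fgg, also of the acute phase, were left out because they are hormone-sensing markers. Lbp, whose product binds bacterial lipopolysaccharide, was at 64.0 ± 24.3 against 4.82 ± 6.73 CPM (log2 4.07 ± 0.39), and Lrg1 at 674 ± 251 against 139 ± 124 CPM (log2 2.53 ± 0.19), both higher in 7 of 7 tumors. Hp, which encodes the hemoglobin-binding haptoglobin, was lower in 7 of 7 tumors, at 147 ± 101 against 387 ± 258 CPM (log2 -1.28 ± 0.31, or -0.79 without replicate 5). Steap4 did not pass (log2 -0.52 ± 0.26). The genes tested thus did not move one way, with 2 genes higher, 1 lower and 1 not past the test. They do not describe acute-phase genes as a whole, since Fga, Fgb and Fgg helped to pick the hormone-sensing-like class.

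Regulators were divided as well, with 5 higher, 4 lower and 9 not passing of 18 tested and a median log2 fold change of 0.09. Cebpb was at 560 ± 491 against 77.3 ± 78.3 CPM (log2 2.67 ± 0.20) and Cebpd at 781 ± 290.4 against 305 ± 195 CPM (log2 1.54 ± 0.16), each higher in 7 of 7 tumors. Stat3, the factor activated by IL-6 type cytokines, was higher by log2 0.45 ± 0.15 in 6 of 7 tumors, whereas its target and inhibitor Socs3 was lower in 7 of 7 (113 ± 58.7 against 386 ± 194 CPM, log2 -1.80 ± 0.23). Tnfaip3 (1.08) and Ikbkb (0.67) were higher and Hif1a (-1.06), Bcl3 (-0.95) and Irf1 (-0.84) lower, while Nfkb1, Rela, Relb and Nfkbia did not pass. The Irf1 call was lost without replicate 1, 3, 4 or 8, with the value at -0.49 without replicate 3, and in the WT series its sign was opposite (0.13). The Stat3 call was lost without replicate 4, that of Ikbkb without replicate 2 or 4, and that of Hif1a without replicate 2 or 4. With DESeq2 the calls of Tnfaip3, Ikbkb, Hif1a and Irf1 were lost.

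**Figure D5:**
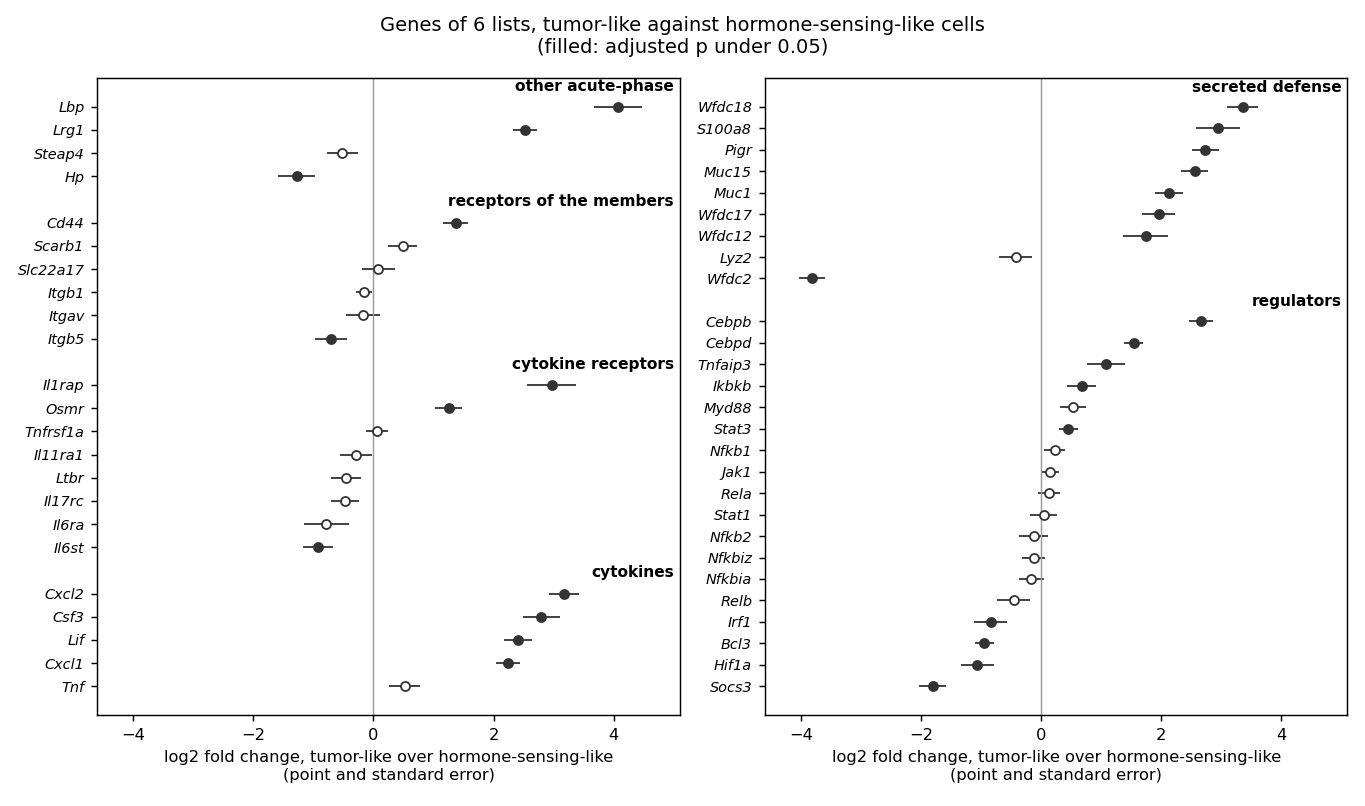
Log2 fold change, tumor-like over hormone-sensing-like cells, of each tested gene of the 6 lists, as point and standard error, filled where the adjusted p was under 0.05. Wfdc18, Lbp, Cxcl2 and Cebpb lie to the right of 0 and Wfdc2, Socs3 and Hp to the left, and the cytokine list has no filled point on the left.

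Of the cytokines, 4 of the 5 tested were higher in tumor-like cells, each in 7 of 7 tumors. They were the neutrophil attractants Cxcl2 (445 ± 459 against 48.8 ± 29.9 CPM, log2 3.17 ± 0.25) and Cxcl1 (372 ± 173 against 91.7 ± 31.5 CPM, log2 2.23 ± 0.20), the granulocyte growth factor Csf3 (log2 2.79 ± 0.30) and the IL-6 family member Lif (log2 2.41 ± 0.23). Tnf did not pass (log2 0.52 ± 0.26). Il6, Il1b and Osm were too low in both classes to be tested. Among cytokine receptors, Il1rap, a subunit of the IL-1 receptor (log2 2.97 ± 0.41), and the oncostatin M receptor gene Osmr (1.26 ± 0.22) were higher and the shared IL-6 family subunit Il6st lower (-0.93 ± 0.25), 3 of 8 tested. Of 6 receptors of the members, the osteopontin receptor gene Cd44 was higher (111 ± 49.6 against 46.6 ± 27.3 CPM, log2 1.37 ± 0.21) and the integrin gene Itgb5 lower (-0.71 ± 0.26, a call lost without replicate 1, 2, 3, 4 or 5). Without the mouse as a block, 8 of the named calls were lost, those of Hp, Wfdc12, Stat3, Tnfaip3, Ikbkb, Irf1, Hif1a and Itgb5. Within the CB series alone Hp was at -0.32 and did not pass, and within the WT series alone Bcl3, Il6st, Osmr, Stat3 and Wfdc12 (0.34) did not pass.

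The values of the members between the same classes are a description, since earlier results of this contrast were known when they were chosen. Log2 fold changes of tumor-like over hormone-sensing-like cells ran from 1.90 ± 0.19 for Cp through 2.60 ± 0.22 for Slpi, 3.06 ± 0.30 for Spp1, 3.19 ± 0.33 for Ltf, 3.26 ± 0.23 for Lcn2 and 3.28 ± 0.27 for Chil1 to 3.87 ± 0.36 for Saa1 and 4.41 ± 0.34 for Saa2. Saa3 and Orm1 did not pass the filter on low counts, so 8 of 10 members entered the fit.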

How the data were processed

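Drop-seq libraries of 7 control tumors were analysed, 1 per mouse. For each, the authors deposited raw UMI counts of genes by barcodes, which are whole numbers and not normalized. The methods name a mouse genome (mm10) with the PyMT sequence added; the submitters' processing notes name STAR and FastQC and list human builds, and the counting program is not given in the sources used here. The members and lists were chosen with earlier results of these data known.

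Sums, shares and intervals were computed in Python 3.11.15 (numpy 2.4.6, scipy 1.17.1, pandas 2.3.3). Mitochondrial genes were dropped and barcodes with 200 to 6000 genes kept. A cell joined a class with at least 3 distinct markers of its list that made up at least 0.4% of its UMIs (1% for tumor markers), a rule set after the files had been seen. Lists other than the tumor list went first, and all but the hormone-sensing list also had to reach the UMIs of the tumor list; a cell that met the hormone-sensing list was kept there whatever its tumor markers. A tumor-like cell met no other list and had no more than 1 UMI, or under 0.4% of its UMIs, from another list, the neutrophil, erythroid and hepatocyte lists aside. Cells that met more than 1 list or failed this last condition (921), and cells that met none (2202), were left out. No doublet caller was run. The limit of 6000 genes and the removal of cells with markers of more than 1 list can leave doublets in, such as those of 1 class or of hormone-sensing-like with tumor-like cells. UMIs were summed per tumor and class with at least 10 cells. Log2 spread used a pseudocount of 1 CPM, and intervals are 95% Poisson intervals.

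Sums were compared by edgeR 4.0.16 in R 4.3.3 (quasi-likelihood test after TMM scaling and filterByExpr). The mouse entered as a block because both sums come from the same tumor. The p-values were adjusted over all genes tested at a threshold of 0.05. Standard errors of log2 fold changes were derived as the fold change over the square root of the test's F statistic, since the fit gives none. The named genes were the members, the genes of the 6 lists that a sentence describes, and up to 10 higher and 5 lower genes called with the same sign in every tumor. On simulated counts with 200 changed genes, 21% of 2-fold and 78.5% of 4-fold changes were called between the epithelial classes. Between Saa-positive and Saa-negative cells 59.5% and 91.5% were called. The simulation used a single fixed dispersion and no difference between mice. In the Saa comparison the 200 lay among 592 and 604 genes, a larger part than the 10 of 630 called in the real counts. These shares can therefore overstate what the real fits recover. Positions come from GENCODE (GRCm38), promoters from RefSeq. Alternatives were DESeq2 1.42.0, other size factors, no filter, no block, other class rules, depth limits and thinning, each title series alone and each tumor left out; leaving out the highest cell of each tumor was added after seeing the data.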

Additional observations from a re-analysis of the deposited data

Results flagged for a closer look

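In all, 41 sets of tumor values were examined for a tumor that stands apart. They were the levels of a member within a class, where these rested on at least 20 UMIs, and the percent of Saa-positive cells. A tumor stood apart when its gap to the nearest other tumor was a large part of the whole range (Dixon's criterion). This marked 16 of them. Chance marks about 1 in 20 sets of normally distributed values chosen without regard to their spread. The rule was applied to CPM without a log scale, and every marked value was the highest of its set. Whether such values are normally distributed was not tested, so 1 in 20 is not the rate for these sets. These members were also listed for their variation between tumors and the same tumors recur, so the count is a description and not a test.

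In tumor-like cells replicate 5 stood apart for Saa2 (1703 CPM, next tumor 631), Saa3 (527 CPM, next 48.2) and Orm1 (16.4 CPM, next 4.03), all of them genes with UMIs in the single cell described above. Replicate 7 stood apart for Slpi (976 CPM, next 571), Cp (5016 CPM, next 2600.3) and Spp1 (13617 CPM, next 2024). The same tumor stood apart in hormone-sensing-like cells for Lcn2 (4472 CPM, next 1673), Spp1 (3646 CPM, next 421) and Ltf (1289.7 CPM, next 417), in macrophage-like cells for Cp (442 CPM, next 159), in T/NK-like cells for Slpi (86.2 CPM, next 31.4), and in fibroblast-like cells for Cp (671 CPM, next 382) and Saa3 (963 CPM, next 394). Barcodes of replicate 7 with under 200 genes also carried the most Spp1 (4711 CPM), Lcn2 (5763 CPM) and Cp (2282 CPM) of the 7 libraries, and the part of such RNA in the replicate 7 values outside tumor-like cells was not tested. In fibroblast-like cells replicate 1 stood apart for Saa1 (106 CPM, next 47.5), Slpi (133 CPM, next 40.5) and Chil1 (213 CPM, next 24.7). Single cells decided some of these values. Without the highest cell, Slpi in fibroblast-like cells of replicate 1 was at 26.9 CPM and Chil1 at 40.4 CPM, Slpi in T/NK-like cells of replicate 7 at 36.1 CPM, Cp in its macrophage-like cells at 266 CPM and Saa3 in its fibroblast-like cells at 557 CPM. In hormone-sensing-like cells of replicate 7, Lcn2 was then at 3544, Spp1 at 2171 and Ltf at 837 CPM. The T/NK-like cell with most Slpi UMIs carried 5 tumor markers and 34 Lcn2 UMIs.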

How the results depend on the processing

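Under the alternatives that kept all 7 tumors, mean levels in tumor-like cells were 91.1% to 104.9% of the reported ones for Lcn2, Ltf, Cp, Slpi, Chil1 and Spp1, 74.8% to 104.2% for Saa1 and Saa2, 20.1% to 107.2% for Saa3 and 41.3% to 98.3% for Orm1. The 8 recomputed joint-detection ratios moved by less than 1 SD between tumors. The summed level of 21625 CPM was 18137 to 23192 CPM with 1 tumor left out. Single tumors carried 3 means: Spp1 was 1549 CPM without replicate 7, and without replicate 5 Saa3 was 26.7 and Orm1 1.60 CPM.

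The number of genes tested changed with the setting, so counts of calls are given beside it. Between tumor-like and hormone-sensing-like cells, 1954 of 28530 genes were higher with no filter and 289 of 3494 in the WT series alone. The reported fit had 1113 of 7034. With 1 tumor left out 714 to 1255 genes were higher (714 of 5215 without replicate 4). Lower genes numbered 630 of 4711 without the 5% of barcodes with most UMIs and 233 of 3494 in the WT series alone, against 1014 of 7034 reported. With 1 tumor left out 581 to 1024 genes were lower (581 of 5215 without replicate 4). Without the replicate block, 763 were higher and 685 lower. Irf1 turned to 0.13 in the WT series. Of the recomputed values of the named genes, 426 kept direction and side of the threshold, 43 lost the call and 1 reversed. With DESeq2 the calls of Hif1a, Ikbkb, Irf1, Itgb5 and Tnfaip3 were lost.

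Between Saa-positive and Saa-negative cells, 2 genes were higher and 0 lower of 630 tested without the replicate block, against 10 and 0 of 630 reported. The counts were 16 and 3 of 437 with at least 2 Saa UMIs, 23 and 5 of 5596 without thinning, and 18 and 1 of 1145 when thinned to 500 UMIs. They were 20 and 1 of 618 with marker-seeded classes and 6 and 1 of 651 in the WT series alone. With 1 tumor left out they were 8 to 14 and 0 to 2. Without the filter 145 of 18364 were lower, Trf was at -0.25 and Fth1 at -0.059, and the median log2 fold change of the genes tested otherwise was -0.71. The Trf call was lost without replicate 2, 4, 5 or 8 (adjusted p up to 0.202) and that of Fth1 without replicate 7, and both calls without thinning. The cause of these changes was not tested. Tumor-like cells numbered 2945 with at least 500 genes per barcode. Orm1 had 25 UMIs in tumor-like cells, and Saa3 and Orm1 were too low to be fitted.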

Other observations

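Slpi was also carried by cells of the B class that had the genes of antibody-secreting cells. In replicate 7, 4 of the 7 B-class cells held all 226 Slpi UMIs, 172 of them in a cell of 2354 UMIs with 151 UMIs of Jchain, 563 of Igkc, 599 of Igha and 0 of PYMT, and 41 in another. A cell of replicate 5 with 145 Jchain and 638 Igkc UMIs held 26, and the only cell of the class in replicate 8 held 9. The B-class cells of replicates 1 and 4, 34 and 40 in number, had none, and the 131 of replicate 2 had 3. These cells were picked for their Slpi counts, and no comparison was made.

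Il1b, Osm and Il6, cytokines that act on acute-phase genes, were each higher on average in another class than in tumor-like cells. Il1b was at 3509 ± 911 CPM (SD, n = 7) and Osm at 273 ± 111 CPM in macrophage-like cells, against 10.9 ± 8.88 and 0.741 ± 0.71 CPM in tumor-like cells. Il6 was at 534 ± 325 CPM in fibroblast-like cells and 426 ± 512 CPM in endothelial-like cells (n = 3), against 2.37 ± 3.07 CPM in tumor-like cells. Il17a was at 152 ± 126 CPM in T/NK-like cells (n = 6), against 0.22 ± 0.582 CPM in tumor-like cells. Lif had the opposite order, at 164 ± 94.8 CPM in tumor-like, 29.5 ± 53.5 CPM in fibroblast-like and 4.38 ± 4.91 CPM in macrophage-like cells. Other acute-phase genes also had sources of their own: C3, the central complement component, was at 1144 ± 387 CPM and Serpina3n, a serine protease inhibitor, at 480.1 ± 264 CPM in fibroblast-like cells, against 12.5 ± 6.66 and 1.5 ± 1.69 CPM in tumor-like cells. Il1rn, the antagonist of the IL-1 receptor, was at 294 ± 170 CPM in macrophage-like cells. Lrg1 reached 632 ± 166 CPM in endothelial-like cells (n = 3), near its 674 ± 251 CPM in tumor-like cells. These levels were not tested between classes.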
